A study of Arabidopsis thaliana with 16 samples.

Results

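GH3.1, GH3.3 and GH3.5 are Arabidopsis genes for GH3 enzymes that join the hormone auxin to amino acids, and they are described here on all 16 arrays of a study of salt along the root. They were taken by name. Each had 1 probe set on the ATH1 array that names no other gene, giving 3 probe sets of the 22810 in the table. GH3.5 is listed there under its other name, WES1. All 3 passed the filter on low signals, which left 17099 probe sets tested.

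The main auxin of plants, indole-3-acetic acid (IAA), sets cell division, elongation and root hair growth according to its local concentration. GH3 enzymes of this group lower the free pool by linking IAA to amino acids such as aspartate, which marks it for storage or breakdown. Their genes belong to the early auxin genes of Arabidopsis, together with the Aux/IAA and SAUR genes, and their transcripts rise soon after auxin is applied. GH3.5 is also known to act on salicylic acid, a defence hormone.

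The seedlings were of the Columbia ecotype, with no transgene or mutation given in the labels. All were grown for 5 days on standard medium, a Murashige and Skoog agar with sucrose. They were then moved to fresh standard medium or to that medium with 140 mM NaCl, and dissected 1 h later. Zone 1 was the outermost tip of about 150 µm. Zone 2 reached about 200 µm further, to near the upper limit of the meristem, and zone 3 ran another 200 to 300 µm to the first root hairs. Zone 4 was the next 1 mm or so, with emerged hairs. Each zone and medium had 2 arrays, each from about 15 pooled sections. Every array holds all tissues of its zone, so fewer cells of a type and less RNA per cell cannot be told apart.

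Across the 16 arrays the median signal lay between 58.63 and 76.97, and the 2 arrays of a group correlated at 0.9787 to 0.9855 over the tested probe sets. The dehydration genes LTI30 and LEA4-5, used to check the treatment, were higher on NaCl in each of the 4 zones. COR47, the third check gene, was higher in zones 2 and 3 and did not pass in zone 1 (0.11, adjusted p = 0.748) or zone 4 (0.14, adjusted p = 0.681). The signals of 3 root hair genes (EXPA7, EXPA18 and XTH26, those of 5 hair markers with a named probe set), summed per array, were 45.5 to 73.7 in standard zones 1 and 2, 3296 to 3623 in zone 3 and 6768 to 6816 in zone 4. AUR1, for an Aurora kinase of dividing cells and the 1 of 7 markers of such cells with a named probe set, was highest in standard zone 1, at 773 and 782. Markers of root cap, vascular cells and green shoot tissue were not analysed here.

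Averaged over the 4 zones with equal weight, the log2 salt change was not called for any of the 3 genes. That average is not the level of the whole sampled root, whose zones differ in length and signal. For GH3.3 the mean signal over the zones, set mostly by zone 4, was lower on NaCl, while the means of zones 2 and 3 were higher. Salt moved all 3 genes in zone 3, in different directions. GH3.3 and GH3.5 rose there and GH3.1 fell. In the hair zone GH3.3 instead fell, with a mean signal 4.34 times lower than on standard medium, and in the tip GH3.5 fell. The higher standard zone 4 array of GH3.3 stood 2.60 times above the lower. The calls of these GH3.3 and GH3.5 falls, and of the zone 3 rises of both genes, were lost in some alternatives, given below. No member was called in zone 2. For each of the 3 genes the salt change differed between zones, a call that GH3.1 lost in some alternatives.

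The plot of signals by array shows these values. GH3.3 covered by far the widest range of the 3, from 1.12 to 877, which placed it between percentile 2.81 and percentile 91.1 of the probe sets on an array. GH3.5 covered 29.6 to 177 and GH3.1 4.87 to 77.6. The level used for the filter was a signal of 41.357, the 40th percentile of all values. GH3.5 exceeded it on 15 of 16 arrays, GH3.3 on 5 and GH3.1 on 3, so most GH3.1 and GH3.3 values lie where MAS 5 signals are low, and detection calls were not used here.

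**Figure D1:**
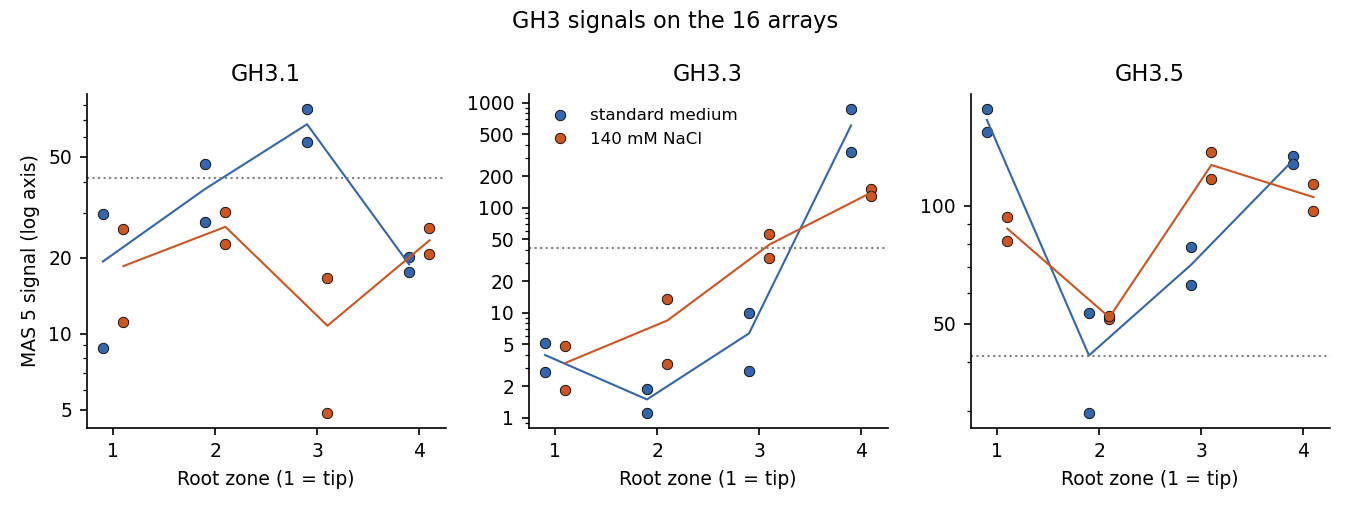
MAS 5 signal on a log axis against root zone for GH3.1, GH3.3 and GH3.5, with 1 point per array (2 for each zone and medium), lines through the group means and a dotted line at the filter level of 41.357. GH3.3 is highest in zone 4 on both media, GH3.1 peaks in standard zone 3 and is lowest in NaCl zone 3, and GH3.5 is lowest in zone 2 on both media.

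On standard medium GH3.3 was a transcript of the hair zone. Its signals were 2.73 and 5.19 in zone 1, 1.87 and 1.12 in zone 2, 2.80 and 9.92 in zone 3, and 338 and 877 in zone 4. Both zone 4 arrays lay far above the other 6, and the arrays of zones 1 and 3 overlapped. The 2 zone 4 arrays themselves differed 2.60-fold. The mean signal of zone 4 was 607 ± 382 (SD, n = 2), while both zone 3 arrays lay far below the filter level, so no ratio is given. On the scale of the test, log2 of the signal plus a pseudocount of 16, the step from zone 3 to zone 4 was 4.67 (SE 0.36, limma adjusted p = 1.53e-08). The size of this step depends on the pseudocount, with 6.40 at a pseudocount of 1 and 3.13 at 64. The earlier steps, zone 1 to 2 and zone 2 to 3, were -0.19 (adjusted p = 0.734) and 0.34 (adjusted p = 0.458), both from and to signals below the pseudocount.

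GH3.5 followed another course, high at the tip, low at the upper meristem and rising again toward the hairs. On standard medium its signals were 177 and 154 in zone 1, 29.6 and 53.3 in zone 2, 78.7 and 62.7 in zone 3, and 134 and 128 in zone 4. No 2 standard zones overlapped. The drop from zone 1 to zone 2 was -1.69 on the log2 scale (SE 0.21, limma adjusted p = 9.01e-06). The rise from zone 2 to 3 was 0.62 (adjusted p = 0.0188) and from zone 3 to 4 it was 0.77 (adjusted p = 0.0061). The first of these rises was lost without zone 2 standard replicate 3 (log2 change 0.32, adjusted p = 0.281) or zone 3 standard replicate 5 (0.48, adjusted p = 0.134), and also with quantile normalization (adjusted p = 0.054) or median centring (adjusted p = 0.0542). The second was lost without zone 3 standard replicate 6 (0.63, adjusted p = 0.062).

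GH3.1 peaked in zone 3, where cells elongate before hairs emerge. Its standard signals were 29.8 and 8.78 in zone 1, 47.1 and 27.6 in zone 2, 57.1 and 77.6 in zone 3, and 20.1 and 17.6 in zone 4. The zone 3 arrays lay above the other 6, while the arrays of zones 1 and 2 overlapped. The fall from zone 3 to zone 4 was -1.25 (SE 0.34, limma adjusted p = 0.00578). It was lost without zone 3 standard replicate 6 (-1.07, adjusted p = 0.0572), and its size was -0.66 with a pseudocount of 64. The steps from zone 1 to 2, 0.64 (adjusted p = 0.159), and from zone 2 to 3, 0.66 (adjusted p = 0.112), did not pass, although the first passed without zone 1 standard replicate 1 (1.08, adjusted p = 0.048).

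All 3 members differed between the 4 standard zones by the moderated F test, as did 81.5% of all tested probe sets, so the count itself sets them apart from nothing. The adjusted p was 1.35e-09 for GH3.3, 3.54e-06 for GH3.5 and 0.00592 for GH3.1. The call for GH3.1 was lost without zone 3 standard replicate 6 (adjusted p = 0.0604). Of the single steps, 34.5% of all probe sets passed from zone 1 to 2, 54.2% from zone 2 to 3 and 45% from zone 3 to 4. Of the 3 members, 1 passed the first step, 1 the second and 3 the third.

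In zone 3, below the first hairs, GH3.3 rose under salt. Its NaCl signals were 56.0 and 33.2, against 2.80 and 9.92 on standard medium. Both NaCl arrays lay above both standard arrays. The log2 change was 1.43 (SE 0.36, limma adjusted p = 0.00712). It was 2.78 with a pseudocount of 1, and 0.62 with 64, where the call was lost (adjusted p = 0.0666). The call was also lost without zone 3 standard replicate 5 (1.20, adjusted p = 0.0782) or zone 3 NaCl replicate 1 (1.16, adjusted p = 0.082). Zone 3 under NaCl thus held a GH3.3 signal above that of standard zone 3, at 44.6 ± 16.1 (SD, n = 2), but standard zone 4 stood 13.6 times higher still.

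GH3.5 rose in zone 3 as well, from 78.7 and 62.7 to 138 and 117. The groups did not overlap, and the NaCl mean of 127 ± 14.5 (SD, n = 2) was close to the 131 ± 4.53 of standard zone 4. The log2 change was 0.73 (SE 0.21, limma adjusted p = 0.0159). It did not pass without zone 3 standard replicate 6 (0.59, adjusted p = 0.121) or zone 3 NaCl replicate 1 (0.62, adjusted p = 0.113).

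GH3.1 went the other way. Its zone 3 signals were 57.1 and 77.6 on standard medium and 16.6 and 4.87 on NaCl, again with no overlap. The log2 change was -1.66 (SE 0.34, limma adjusted p = 0.00144). The zone 3 peak of the unsalted root was not seen under NaCl, where zone 3 held the lowest group mean, 10.8 ± 8.31 (SD, n = 2). GH3.1 exceeded the filter level only on standard arrays, among them both of zone 3. It thus entered the test through groups where it is high, so this fall is a description. The change was -2.73 with a pseudocount of 1 and -0.81 with 64, and it passed in every alternative that kept GH3.1 in the test. Leaving out single arrays gave -1.99 to -1.34.

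Among all tested probe sets, 12.6% passed upward and 13.2% downward in zone 3, the highest shares of the 4 zones. Of the members, 2 passed upward and 1 downward. The median size of the change, regardless of sign, was 1.43 for the 3 members and 0.32 for all tested probe sets. The members were chosen with earlier results of these data known, so this is a description.

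In zone 4 the strong standard signal of GH3.3 was cut, from 338 and 877 to 149 and 131. The 2 NaCl arrays lay below both standard arrays. The log2 change was -1.85 (SE 0.36, limma adjusted p = 0.0021), and the ratio of mean signals, standard over NaCl, was 4.34. The call was lost with a pseudocount of 1 (-1.96, adjusted p = 0.122). Without zone 4 standard replicate 8, the higher of the standard arrays, the change was -1.18 (adjusted p = 0.0514). GH3.5 went from 134 and 128 to 113 and 97.2, lower on both NaCl arrays, but the change of -0.28 did not pass (95% interval -0.72 to 0.16, adjusted p = 0.476). GH3.1 stayed low, at 20.1 and 17.6 against 20.7 and 26.1, with a change of 0.18 (95% interval -0.54 to 0.89, adjusted p = 0.821). Of all probe sets, 5.5% passed upward and 6.56% downward in zone 4, and of the members 0 and 1.

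Of the 3 root hair markers, 2 rose in zone 3 and 3 fell in zone 4, the zones where GH3.3 rose and fell. Over all tested probe sets, 12.6% passed upward in zone 3 and 6.56% downward in zone 4. EXPA7 and EXPA18, expansin genes of hair cells, rose in zone 3 by 1.18 and 1.01 and fell in zone 4 by 1.43 and 1.74 on the log2 scale. XTH26 fell in zone 4 by 1.42, and its zone 3 change of -0.06 did not pass. The zone 3 call for EXPA18 was lost without zone 3 standard replicate 5 (0.75, adjusted p = 0.0549), and the zone 4 call for XTH26 without zone 4 standard replicate 7 (-1.19, adjusted p = 0.0525) or with a pseudocount of 1 (-1.65, adjusted p = 0.221). The summed signal of the 3 markers went from between 3296 and 3623 to between 7260 and 7701 in zone 3, and from between 6768 and 6816 to between 1892 and 2576 in zone 4. EXPA18 also passed in zone 1 (-0.87, adjusted p = 0.0166), lost without zone 1 standard replicate 1 (0.102) or 2 (0.0619) or NaCl replicate 2 (log2 change -0.51, adjusted p = 0.214). It was also lost on the zone 1 arrays alone (0.127), with the replicate block there (0.107) and with a pseudocount of 64 (0.13). EXPA18 signals in zone 1 were only 36.8 and 41.6 on standard medium and 7.54 and 22.7 on NaCl, near or below the filter level. None of the 3 markers stood at 0, but XTH26 lay at only 2.16 to 3.68 on the zone 3 arrays of both media. The zone 3 sum is therefore nearly all EXPA7 and EXPA18. The part of hair cell number or state in the GH3.3 changes was not tested.

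In zone 1, where its standard signal was the highest of its 8 group means, GH3.5 fell. Its tip signals were 177 and 154 on standard medium and 93.5 and 81.6 on NaCl, with no overlap. The log2 change was -0.81 (SE 0.21, limma adjusted p = 0.0196). Single arrays decided this call. It was lost without standard replicate 1 (-0.72, adjusted p = 0.133), standard replicate 2 (-0.90, adjusted p = 0.0607), NaCl replicate 1 (-0.90, adjusted p = 0.061) or NaCl replicate 2 (-0.73, adjusted p = 0.122) of zone 1. GH3.1 changed by 0.00 (95% interval -0.71 to 0.71, adjusted p = 0.999) and GH3.3 by -0.05 (95% interval -0.81 to 0.72, adjusted p = 0.961), in a zone where no GH3.3 signal exceeded 5.19. Of all probe sets, 5.01% passed upward and 4.63% downward, and of the members 0 and 1. AUR1 moved with GH3.5 there, from 773 and 782 to 443 and 460, at -0.76 (adjusted p = 0.0079). That call too was lost without standard replicate 1 (adjusted p = 0.0544), standard replicate 2 (adjusted p = 0.0519) or NaCl replicate 1 (adjusted p = 0.0605) of zone 1. In zone 2 AUR1 fell as well (-0.60, adjusted p = 0.0297), where GH3.5 did not pass (0.27, adjusted p = 0.477). The zone 2 call of AUR1 was lost without zone 2 standard replicate 3 (0.125) or 4 (0.137) or NaCl replicate 1 (-0.34, adjusted p = 0.296), and on the zone 2 arrays alone (0.122). The part of dividing cells in the GH3.5 change was not tested.

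In zone 2 none of the members passed, where 6.19% of all probe sets passed upward and 5.2% downward. GH3.5 stood at 51.5 and 52.3 under NaCl, within its standard range of 29.6 to 53.3. GH3.3 was at 13.6 and 3.24, above its standard 1.87 and 1.12, with a change of 0.45 (95% interval -0.31 to 1.21, adjusted p = 0.501). GH3.1 was at 22.6 and 30.4, overlapping its standard arrays, with a change of -0.31 (95% interval -1.03 to 0.40, adjusted p = 0.639). Averaged over the 4 zones with equal weight, the log2 changes were 0.00 for GH3.3 (SE 0.18, adjusted p = 0.987), -0.02 for GH3.5 (SE 0.10, adjusted p = 0.892) and -0.45 for GH3.1 (SE 0.17, adjusted p = 0.053). The GH3.3 average does not mean an unchanged level, since its mean signal over the zones was lower on NaCl. The GH3.1 average, just short of the threshold, passed under several alternatives, with adjusted p = 0.0244 after quantile normalization and 0.0416 after median centring. It also passed without zone 1 standard replicate 2 (-0.56, adjusted p = 0.0176), zone 2 standard replicate 4 (-0.52, adjusted p = 0.0421), zone 1 NaCl replicate 2 (-0.53, adjusted p = 0.0328) or zone 3 NaCl replicate 1 (-0.53, adjusted p = 0.0317). On average 15.6% of all probe sets passed upward and 15.3% downward.

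**Figure D2:**
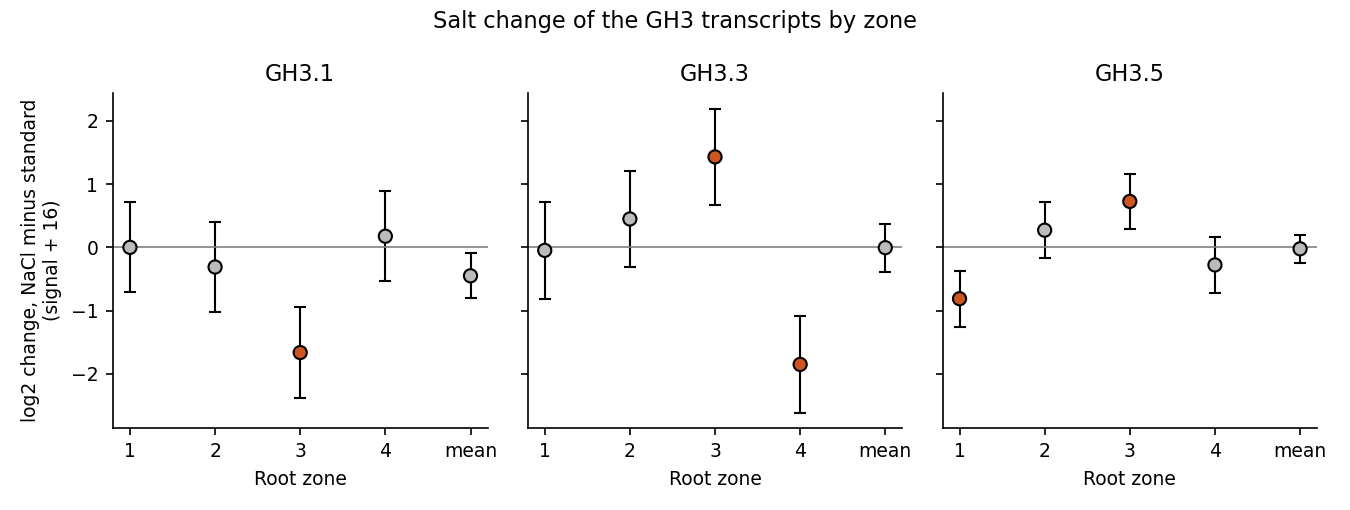
Change on the log2(signal + 16) scale, NaCl minus standard, for GH3.1, GH3.3 and GH3.5 in each zone and averaged over zones, with 95% intervals from the limma fit; filled orange points passed an adjusted p of 0.05. In zone 3 GH3.1 lies at -1.66 while GH3.3 and GH3.5 lie at 1.43 and 0.73, and GH3.3 turns to -1.85 in zone 4.

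The difference of the salt change between zones was tested with a moderated F test of the interaction. With members chosen with earlier results of these data known, the count here is only a description. The test passed for GH3.3 (adjusted p = 0.00169), GH3.5 (adjusted p = 0.00647) and GH3.1 (adjusted p = 0.0348), 3 of 3 where 18.3% of all probe sets passed. GH3.3 and GH3.5 kept this call in every alternative run, with adjusted p of at most 0.0101 and 0.0243 when single arrays were left out. For GH3.1 it was lost without 6 of the 16 arrays taken singly: zone 3 standard replicate 5 (0.0668) or 6 (0.147), zone 4 standard replicate 7 (0.0553) or 8 (0.0574), zone 3 NaCl replicate 2 (0.174) and zone 4 NaCl replicate 2 (0.0636). It was also lost with a pseudocount of 1 (0.0864) and without the filter (0.0555).

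The zones were also compared with each other under NaCl. GH3.3 rose in steps, by 1.32 from zone 2 to 3 (limma adjusted p = 0.00474) and by 1.39 from zone 3 to 4 (adjusted p = 0.00541), and the mean signal of zone 4 was 3.14 times that of zone 3. The first step was lost without zone 2 NaCl replicate 2 (1.01, adjusted p = 0.0653) or zone 3 NaCl replicate 1 (1.04, adjusted p = 0.0617). The second was lost without zone 3 NaCl replicate 2 (1.11, adjusted p = 0.0683) or with a pseudocount of 1 (1.67, adjusted p = 0.0892). GH3.5 fell from zone 1 to 2 by 0.61 (adjusted p = 0.0285) and rose from zone 2 to 3 by 1.07 (adjusted p = 0.000284), with -0.24 from zone 3 to 4 (adjusted p = 0.411). The fall was lost without either array of NaCl zone 1 (adjusted p = 0.139 and 0.0567) or NaCl zone 2 (0.0968 and 0.0812), and with quantile normalization (0.179) or median centring (0.17). GH3.1 had no called step under NaCl, with 0.33, -0.70 and 0.59 in order along the root, although its step from zone 2 to 3 passed without zone 3 NaCl replicate 1 (-1.02, adjusted p = 0.0453), after quantile normalization (adjusted p = 0.0194) and after median centring (adjusted p = 0.0467). Of all probe sets, 40.4%, 57.1% and 38.6% passed these 3 steps, and 82.2% differed between the 4 NaCl zones. GH3.3 (adjusted p = 2.06e-06) and GH3.5 (adjusted p = 0.000978) differed between the NaCl zones, and GH3.1 did not pass (adjusted p = 0.235).

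Ranked over the 8 groups by mean signal, GH3.3 ran from standard zone 4 (607) through NaCl zone 4 (140) and NaCl zone 3 (44.6) to the other 5 groups, at 8.44 or less. The arrays of each of the first 3 groups lay apart from those of the next group down, while neighbours among the last 5 overlapped. GH3.5 ran from standard zone 1 (166), standard zone 4 (131), NaCl zone 3 (127) and NaCl zone 4 (105) to NaCl zone 1 (87.5), standard zone 3 (70.7), NaCl zone 2 (51.9) and standard zone 2 (41.5). Its overlapping neighbours were standard zone 4 with NaCl zone 3, and NaCl zone 2 with standard zone 2. For GH3.1 standard zone 3 (67.4) stood apart from standard zone 2 (37.4), and all later neighbours in the order overlapped, down to NaCl zone 3 (10.8). Over the 16 arrays GH3.1 correlated with GH3.5 at -0.55 and with GH3.3 at -0.28, and GH3.3 with GH3.5 at 0.44, as a description of arrays that share zones.

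The other GH3 family genes give the setting. The list written for the family held 19 genes, of which 11 have a probe set that names them alone: the 3 members and 8 others. GH3.9 and the loci AT5G13350 and AT1G48660 exceeded the filter level on 0 of 16 arrays and were not tested. GH3.17, an enzyme of IAA known to prefer glutamate, was measured well above the filter level on all 16 arrays. Its standard tip signals of 421 and 480 dropped to 139 and 112 under NaCl, and its zone 4 signals of 107 and 152 rose to 374 and 420, with no overlap in either zone. The log2 changes were -1.72 in zone 1 (SE 0.24, limma adjusted p = 0.000232) and 1.52 in zone 4 (SE 0.24, adjusted p = 0.000405), and both passed in every alternative run. In zone 4 GH3.17 and GH3.3 thus changed in opposite directions, and in zone 1 GH3.17 fell as GH3.5 did. The difference between zones passed for GH3.17 at an adjusted p of 8.82e-05.

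Of the 4 tested family genes that the annotation tables name by locus alone, AT5G51470 was a tip transcript, at 671 and 682 in standard zone 1 and at most 6.41 on the other standard arrays. Under NaCl it fell in the tip to 192 and 276 (-1.49, adjusted p = 0.000621) and rose in zone 4 from 6.41 and 4.19 to 39.5 and 48.9 (adjusted p = 0.000339). The tip call was lost with a pseudocount of 1 (-1.55, adjusted p = 0.0868), and the zone 4 log2 change was 2.86 and 0.64 with pseudocounts of 1 and 64. AT1G48670 rose in zone 3, from 15.3 and 19.1 to at most 61.2, with no overlap (1.21, adjusted p = 0.00147, or 0.62 with a pseudocount of 64). In zone 4 it was lower on both NaCl arrays, from 73.5 and 103 to 45.6 and 53.7. That change did not pass (-0.65, limma adjusted p = 0.102), but did with a pseudocount of 64 (-0.41, 0.0248) or without trend (0.0193). Its zone 2 change (-0.60, adjusted p = 0.136) passed with a pseudocount of 1 (-1.84, 0.0166) or without trend (0.0332). AT5G13380 exceeded the filter level on 5 of 16 arrays, all of them on NaCl, at signals of 42.8 to 61.7. Its highest standard signal was 37.7. The gene thus entered the test only through the medium where it was higher, so its calls are a description. It passed on average (0.64, adjusted p = 0.00354) and in no single zone, with 0.83 in zone 3 (adjusted p = 0.0508). That zone 3 change passed after quantile normalization (0.0346), with a pseudocount of 64 (0.0469), without trend (0.0423), and without zone 1 standard replicate 1 (0.045) or 2 (0.0461) or zone 2 standard replicate 3 (0.0375) or 4 (0.0361). AT1G23160, at 439 and 438 in the standard tip, passed in no salt contrast. Of the 8 tested family genes, counting the members, 3 fell and 0 rose in zone 1, 0 passed in zone 2, 3 rose and 1 fell in zone 3, and 2 rose and 1 fell in zone 4. Over all tested probe sets 5.01% rose and 4.63% fell in zone 1, 6.19% and 5.2% in zone 2, 12.6% and 13.2% in zone 3, and 5.5% and 6.56% in zone 4. The difference of the salt change between zones passed for 6 of the 8, against 18.3% of all probe sets. The 8 are the family genes left by the filter, and the members among them were chosen with earlier results known. These counts are therefore a description.

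**Figure D3:**
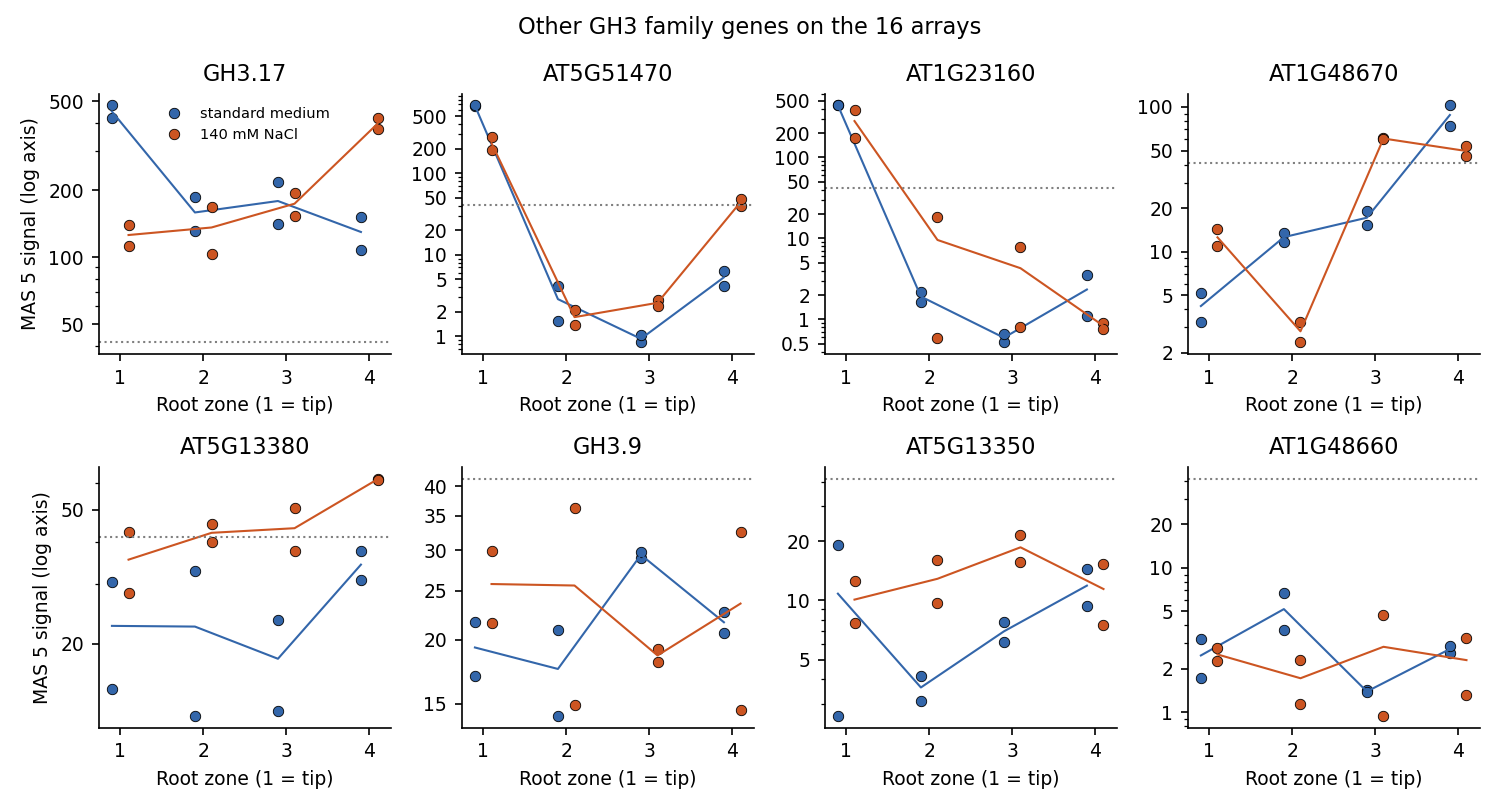
MAS 5 signal on a log axis against root zone for the other 8 GH3 family genes, 1 point per array, lines through the group means, dotted line at the filter level of 41.357. GH3.17 and AT5G51470 are highest in the standard tip, fall there under NaCl and rise in NaCl zone 4, while GH3.9, AT5G13350 and AT1G48660 stay below the dotted line.

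Other genes of auxin metabolism and response could be followed only in part. Of 200 genes written in 9 auxin lists, 17 had a probe set that names them alone and 12 were tested, and 5 of the lists had no gene with such a probe set. Many tested probe sets carry no gene name in the platform table, so genes without a named one were not analysed here. Of 6 tested Aux/IAA genes, whose proteins repress auxin response, 1 rose in zone 1, 0 passed in zone 2, 1 rose in zone 3, and 1 rose and 1 fell in zone 4. Over all tested probe sets the shares were 5.01% upward in zone 1, and 6.19% upward and 5.2% downward in zone 2. They were 12.6% upward in zone 3, and 5.5% upward and 6.56% downward in zone 4. With so few genes tested in this and the following lists, nothing is read from their counts. IAA18 was the one in zone 1 (1.37, adjusted p = 0.0019), and IAA30 rose in zone 4 (1.22, adjusted p = 0.0197), a call lost without zone 4 standard replicate 8 (0.166), NaCl replicate 1 (0.0548) or NaCl replicate 2 (0.137). IAA31 was the one that rose in zone 3 (0.83, adjusted p = 0.0313) and fell in zone 4 (-0.98, adjusted p = 0.023). The zone 3 call was lost without any one of the 4 arrays of that zone (adjusted p = 0.0816, 0.144, 0.132 and 0.0966). The zone 4 call was lost without zone 4 standard replicate 7 (0.145), standard replicate 8 (0.0678) or NaCl replicate 2 (0.265). LBD16, a transcription factor gene of lateral root founding, rose in zone 3 (0.93, adjusted p = 0.0191), a call lost without zone 3 standard replicate 5 (0.0525) or 6 (0.113) or NaCl replicate 1 (0.137). It fell in zone 2 (-0.88, adjusted p = 0.0491), where leaving out an array, even of another zone, mostly ended the call, with adjusted p up to 0.372 without zone 2 NaCl replicate 1. With a pseudocount of 1, the calls of IAA31 in zones 3 (0.248) and 4 (0.294), IAA30 in zone 4 (0.0594) and LBD16 in zone 3 (0.135) were lost. LBD29 passed in no salt contrast. YUC2, for an enzyme of IAA synthesis, passed in none either, with changes from 0.08 to 0.42. Of the list of other IAA inactivation, 3 genes were tested, 2 of them named by locus alone in the annotation tables. Both fell in zone 4, AT1G14130 by 1.07 (adjusted p = 0.00113) and AT1G14120 by 1.27 (adjusted p = 0.0117) on the log2 scale, and none passed in zones 1 to 3. The call for AT1G14120 was lost without zone 4 standard replicate 8 (0.16), NaCl replicate 1 (0.0734) or NaCl replicate 2 (0.0568), and with a pseudocount of 1 (0.372). The glucosyltransferase gene UGT74D1, the third, passed in no zone. The zone 2 change of AT1G14120 passed with a pseudocount of 1 (-2.68, limma adjusted p = 0.0454), at signals of 13.3 or less. Averaged over the zones, 1 of the 3 genes passed downward, beside 15.3% of all tested probe sets.

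The genes most like each member over the 16 arrays were found among 9608 other tested probe sets that name 1 gene, by the Pearson correlation of log2(signal + 16). For GH3.3 they were AT3G59340 (r = 0.98), AT2G19410 (0.97), AT5G47980 (0.96), AT5G44390 (0.96) and AT3G45710 (0.96), all highest in standard zone 4. Their salt changes lay between 0.31 and 1.46 in zone 3 and between -1.51 and -0.59 in zone 4. By Spearman correlation these 5 ranked between 404 and 731. For GH3.5 they were AT3G01860 (0.90), AT1G67530 (0.89), AT5G62420 (0.87), HOS3-1 (0.86) and AT5G58787 (0.86), of which 3 were also among the first 5 by Spearman correlation. For GH3.1 they were AT2G19880 (0.83), AT3G51990 (0.81), AT3G24530 (0.81), AT2G02400 (0.81) and OPCL1 (0.76), the last known for a ligase of jasmonate synthesis. These 5 ranked between 3 and 75 by Spearman correlation. All 5 had negative salt changes in zone 3, from -1.59 to -0.78. The arrays share zones and media, so these correlations describe the profile and carry no test.

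**Figure D4:**
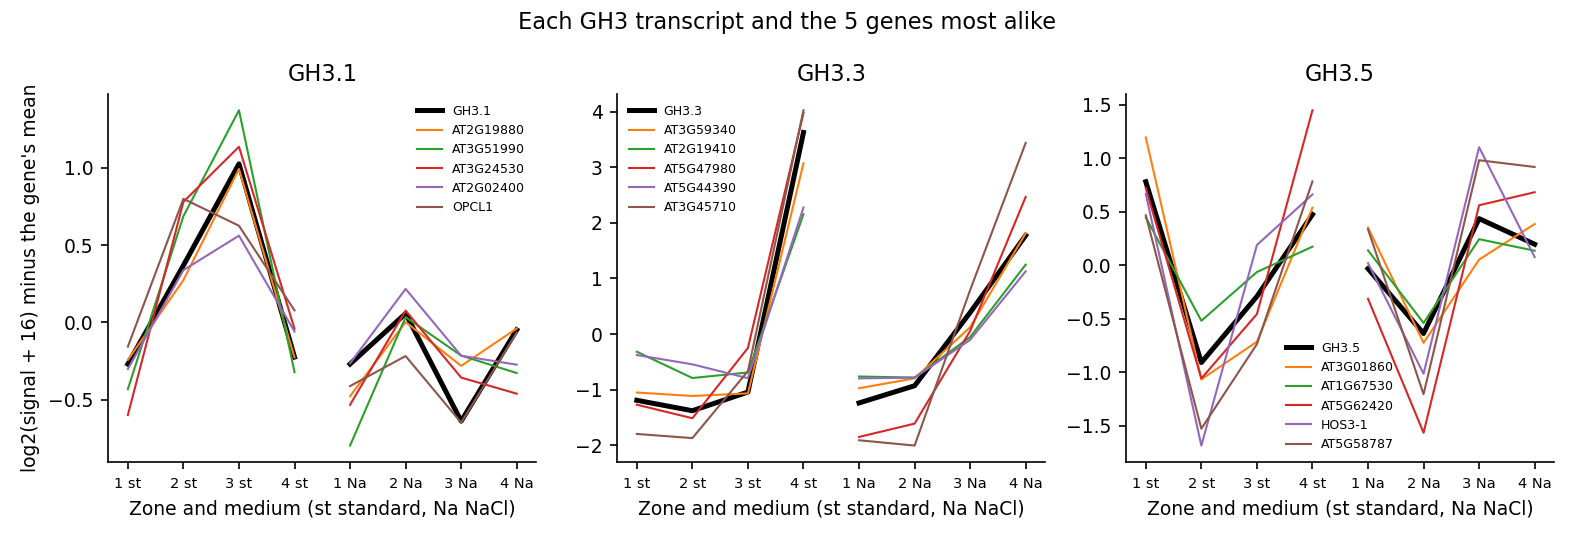
Group means of log2(signal + 16), centred on each gene's mean over the 8 groups, for each GH3 transcript (thick black line) and the 5 genes with the highest Pearson correlation to it over 16 arrays; the horizontal axis gives zones 1 to 4 on standard medium and then on NaCl. The genes grouped with GH3.3 share its standard zone 4 peak and those with GH3.1 lie lower in NaCl zone 3 than in standard zone 3.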

How the data were processed

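Affymetrix ATH1 arrays were hybridised with biotin-labelled RNA after two-cycle amplification, per the labels' protocols. The deposited values are signal intensities from MAS5, per the submitters' processing notes. Their trimmed mean (2% off each end) was 250.02 to 250.03 on every array, so the authors' values share a scale. Detection calls, array dates and the MAS5 version are not given in the sources used here.

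The 64 control probe sets were left out, and 17099 others were tested, those with 2 or more arrays over the 40th percentile of the whole table. Signals entered as log2(signal + 16), which understates the changes of low transcripts. One model with a mean per group (8 groups) was fitted by lmFit and eBayes with trend (limma 3.58.1, R 4.3.3), with 8 residual and 8.61 prior degrees of freedom. P-values are two-sided and Benjamini-Hochberg adjusted over every tested probe set, at a threshold of 0.05. The procedure was tested on simulated data.

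The labels do not say that replicates came from separate cultures, so p-values measure only the spread between these samples, which may be technical. With 2 arrays a group, precision is limited: the median SE of a log2 salt change in a zone was 0.21. Names came from the platform table (9611 tested probe sets name 1 gene, 337 several, 7151 none) and RefSeq symbols; of several probe sets for a gene, the one with the highest mean was taken. The members, the lists and the rule for named genes were chosen with earlier results of these data known. The rule names each member, each family gene, the 5 genes most alike, and for every list up to 4 genes a comparison by p. Alternatives were other pseudocounts, filters and normalizations, no trend, subsets of arrays, a replicate block and leaving out each array.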

Additional observations from a re-analysis of the deposited data

Results flagged for a closer look

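The salt change of each of the 3 members differed between root zones by the interaction test, with limma adjusted p = 0.00169 for GH3.3, 0.00647 for GH3.5 and 0.0348 for GH3.1. GH3.3 changed by 1.43 in zone 3 and by -1.85 in zone 4. GH3.5 changed by -0.81 in zone 1 and by 0.73 in zone 3. GH3.1 changed by -1.66 in zone 3, by -0.31 in zone 2 and by 0.18 or less in size in zones 1 and 4. Its call for the difference between zones was lost without 6 of the 16 arrays taken singly. It was also lost with a pseudocount of 1 (limma adjusted p = 0.0864) and without the filter (0.0555).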

How the results depend on the processing

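For the 3 members, 42 results were recomputed, giving 1003 pairs of a result and an alternative, of which 954 kept the side of the threshold, 36 lost the call, 13 gained it and 0 changed direction with a call. Of the 22 called results, 10 kept the call throughout. With a pseudocount of 1, the lost calls were GH3.3 in zone 4 (-1.96), GH3.3 under NaCl from zone 3 to 4 (1.67) and the GH3.1 difference between zones (adjusted p = 0.0864, and 0.0555 without the filter). With 64, GH3.3 in zone 3 was lost (0.62), while the GH3.1 average (-0.23) and its standard step from zone 2 to 3 (0.38) were gained. Quantile normalization and median centring gained the GH3.1 average (-0.49 and -0.46) and its NaCl step from zone 2 to 3 (-0.90 and -0.80), and lost for GH3.5 the standard step from zone 2 to 3 (0.52 and 0.51) and the NaCl step from zone 1 to 2 (-0.39 and -0.39). The fit without trend gained the GH3.1 average (-0.45). GH3.1 could not be tested with the filter at the 60th percentile. Causes were not tested. With single arrays left out, the ranges for GH3.1 were -0.56 to -0.34 for the average, 0.19 to 1.08, 0.39 to 0.92 and -1.43 to -1.07 for the standard steps, -1.02 to -0.37 for the NaCl step from zone 2 to 3, and adjusted p of 0.0169 to 0.174 for the difference between zones and 0.00183 to 0.0604 for the standard zones. For GH3.3 they were 1.16 to 1.71 in zone 3, -2.52 to -1.18 in zone 4, and 1.01 to 1.63 and 1.11 to 1.66 for the NaCl steps from zones 2 and 3. For GH3.5 they were -0.90 to -0.72 in zone 1, 0.59 to 0.86 in zone 3, 0.32 to 0.92 and 0.63 to 0.90 for the standard steps from zones 2 and 3, and -0.69 to -0.52 for the NaCl step from zone 1. Counts of called probe sets are listed next only where their ratio to the main count passed a fixed limit. Counts not listed may have moved by less. Called probe sets fell in zone 1 from 1648 to 928, 869, 848 and 1020 (without standard replicates 1 and 2 and NaCl replicates 1 and 2), in zone 2 from 1949 to 981, 1060, 1171 and 1207 (without standard replicates 3 and 4 and NaCl replicates 1 and 2) and 1297 (fitted on its 4 arrays alone), in zone 3 from 4420 to 2843 (standard replicate 5) and 2907 (NaCl replicate 2), in zone 4 from 2062 to 1196 (standard replicate 7) and 1149 (NaCl replicate 2), and for the standard step from zone 1 to 2 from 5891 to 3885 (zone 2 replicate 4).

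Replicate numbers are shared by the zone 1 groups and the NaCl groups. Same-numbered arrays did not deviate together, with correlations of -0.02 to 0.06 over 10 pairs of groups. The labels do not say whether the numbers pair the samples. These correlations cannot exclude it, since paired samples need not deviate together. With a replicate block in zone 1, GH3.5 changed by -0.81 (adjusted p = 0.0429), and the block changed no call of a member.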
